A study of Mus musculus with 32 samples.

Results

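The mitochondrial ribosome is built from proteins that are encoded in the nucleus, made in the cytosol and imported into mitochondria, and from ribosomal RNAs encoded by mitochondrial DNA. The genes described here were those whose array name starts with Mrpl or Mrps followed by a digit, together with Dap3, a GTP-binding protein of the small subunit that carries an older name. This rule uses names and no measured value, but the members were chosen with earlier results of these data known. Apart from Dap3, mitoribosome proteins without an Mrp name on the array fall outside it. The rule found 76 of the 27573 genes on the array. By name, 46 were counted with the large subunit (Mrpl) and 30 with the small subunit (Mrps and Dap3). Each gene was read from its brightest probe, since 35 of the 76 had several probes and 41 had 1.

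The study compared laser-captured cells of the lumbar anterior horn of female mice of 2 transgenic models with their nontransgenic littermates. Mice with the mutant superoxide dismutase transgene Tg(SOD1-G93A)1Gur were 8 weeks old on the B6SJL background, and their littermate controls were B6SJL. Mice with the mutant tau transgene Tg(TAU-P301L) were 16 weeks old on the B6D2F1 background, and their littermate controls were B6D2F1, so transgene, age and strain differ together between the models. The promoters that drive the transgenes are not given in the sources used here. In each model, either motor neurons or the glia that surround them were taken, 500 cells per mouse, which gave 4 comparisons: SODmn and SODgl for the motor neurons and glia of SOD1-G93A mice, and TAUmn and TAUgl for those of TAU-P301L mice. Each comparison had 4 littermate pairs, read on 2 arrays that had the dyes exchanged, so that the pair is the replicate (n = 4).

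The mitochondrial ribosome translates the few messages that mitochondrial DNA encodes, all of which are subunits of the oxidative phosphorylation complexes. Its small subunit binds the message and holds the decoding site, and its large subunit joins the amino acids. Motor neurons have long axons and a high demand for ATP, and mitochondrial defects have been widely described in SOD1-mutant mice. Promoters of nuclear genes for mitochondrial proteins are known for sites of the factors NRF1, the ETS family (GABP) and YY1.

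Because the members share a function but lie on many chromosomes, the letters they have in common were looked for in the bases before their start sites. RefSeq promoter windows on GRCm38.p6 matched 66 of the 76 members. Dap3, Mrpl13, Mrpl15, Mrpl19, Mrpl38, Mrpl4, Mrpl54, Mrps28, Mrps34 and Mrps35 had no entry. The windows below are the 150 bases before the start, 5′ to 3′ on the strand of the gene, with a motif match in capitals. Mrpl17 and Mrpl39 are shown for the NRF1 letters, Mrps18a and Mrps22 for the ETS letters, and Mrps14 as a member with none of the motifs. The first 4 were members that differed between control motor neurons and control glia, and Mrps14 was among the higher members of the TAU-P301L glia.
Mrpl17 (GRCm38.p6, chr7:105811088-105811237, minus strand): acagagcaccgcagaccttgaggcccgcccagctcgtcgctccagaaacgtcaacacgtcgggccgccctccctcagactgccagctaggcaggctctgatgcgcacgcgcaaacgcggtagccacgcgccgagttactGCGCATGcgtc
Mrpl39 (GRCm38.p6, chr16:84735245-84735394, minus strand): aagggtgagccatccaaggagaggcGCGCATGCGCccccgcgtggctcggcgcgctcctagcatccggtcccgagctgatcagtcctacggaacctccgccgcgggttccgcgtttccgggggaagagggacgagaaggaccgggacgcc
Mrps18a (GRCm38.p6, chr17:46110854-46111003, plus strand): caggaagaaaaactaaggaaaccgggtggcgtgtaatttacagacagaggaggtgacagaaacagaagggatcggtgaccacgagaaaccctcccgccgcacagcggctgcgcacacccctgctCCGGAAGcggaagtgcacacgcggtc
Mrps22 (GRCm38.p6, chr9:98601680-98601829, minus strand): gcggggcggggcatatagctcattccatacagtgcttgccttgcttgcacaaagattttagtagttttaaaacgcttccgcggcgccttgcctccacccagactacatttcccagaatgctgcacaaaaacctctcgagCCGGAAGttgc
Mrps14 (GRCm38.p6, chr1:160195065-160195214, plus strand): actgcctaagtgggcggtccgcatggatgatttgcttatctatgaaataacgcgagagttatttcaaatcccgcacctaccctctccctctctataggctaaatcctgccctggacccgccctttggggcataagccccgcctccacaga

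The NRF1 letters searched were CATGCGC, the ETS letters CCGGAAG and the YY1 letters AAGATGGCG, on both strands in the 250 bases before the start, and none of the 3 holds another. In Mrpl39 the NRF1 letters of both strands overlap each other. The NRF1 letters stood in 8 of 66 members (12.1%), against 4.51% of 17492 protein-coding genes and 3.68% of all 27025 genes in the table. The ETS letters stood in 17 members (25.8%), against 10.2% of protein-coding and 7.83% of all genes. The YY1 letters stood in 2 members (3.03%), against 0.84% and 0.71%. Any of the 3 was found in 25 members (37.9%), of which 17 of 40 were of the large and 8 of 26 of the small subunit, against 14.5% of protein-coding and 11.5% of all genes. These shares are a description of letters in windows of equal length, and a match is not evidence of a bound site.

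The arrays limited what could be measured. Between 9.09% and 79.3% of probes were well above background in the red channel and between 35.2% and 77.6% in the green channel of an array. A member was tested in a comparison when at least 4 of the 8 extracts had its brightest probe well above background on each of their arrays, which left 70 members in SODmn, 62 in SODgl, 68 in TAUmn and 60 in TAUgl. Of the 76 members, 60 were tested in all 4 comparisons, and 5 (Mrpl37, Mrpl9, Mrps18b, Mrps23 and Mrps35) in none. Some arrays stood apart. In TAUgl pair 1 the dye-swapped arrays correlated at -0.74 over all genes tested and at -0.81 over the members, and the member medians of these arrays were 0.63 and -0.72 on the log2 ratio scale. In SODgl pair 2, which was scanned together with that pair, the correlations were -0.46 and -0.58. In the other 14 pairs the correlation over all genes tested lay between -0.21 and 0.67. Where 1 array of a pair had no value the pair was dropped for that gene, as for 8.33% of the member values in TAUgl pair 1. In SODmn pair 3 the median member signal was 6.98 in the control and 6.91 in the transgenic extract, below the 7.47 to 7.86 of the other 14 motor neuron extracts. Dap3, the TAUgl and SODmn member medians and several named members are also given without the pair concerned. Other values include these pairs unless stated.

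The labelled cell types were checked against their markers in the control extracts. The motor neuron list had 12 genes tested, with 6 called towards motor neurons and 1 towards glia. Of the other markers, 5 of 11 for astrocytes and 6 of 10 for oligodendrocytes were higher in glia. Over all 9924 genes tested, 27% were called towards motor neurons and 12.8% towards glia. Neuronal genes were also measured in glia. Snap25, of the synaptic fusion machinery, was well above background in 8 of 8 control glia extracts. Chat, which makes acetylcholine, was so in 2 of 8, against 4 of 8 control motor neuron extracts. Slc5a7 was above background in 8 of 8, Isl1 in 7 of 8 and Mnx1 in 4 of 8 extracts of each cell type. Nefl, Nefh, Calca and Uchl1 were so in 7 of 8 motor neuron and 8 of 8 glia extracts, and Chodl in 4 and 5. Motor neurons had more such extracts for Prph (5 against 1), Mmp9 (7 against 0), Ache (7 against 3), Slc18a3 (3 against 1), Nefm (8 against 7) and Rbfox3 (6 against 5). Gfap, which defines many astrocytes, was above background in 3 of 8 extracts of either cell type, and Mog, Itgam and Cdh5 in 0 of 8. In captured bulk RNA of this kind, fewer cells of a type and less RNA per cell cannot be told apart.

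Dap3 was the member with the highest ratio in both TAU-P301L comparisons, while its mean was -0.02 in SODmn and 0.12 in SODgl. In TAUmn the normalised log2 signal of Dap3 was 8.54, 8.59, 8.12 and 8.71 in the control extracts of pairs 1 to 4 and 9.33, 9.18, 8.65 and 8.96 in their transgenic littermates. In TAUgl it was 8.79, 7.83, 8.48 and 7.66 in the controls and 9.06, 8.55, 9.10 and 8.41 in the transgenic extracts. The transgenic extract was the higher in every pair of both comparisons, although the groups of extracts overlapped.

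The TAUmn log2 ratios of Dap3, transgenic over control, were 0.79, 0.59, 0.53 and 0.25 in pairs 1 to 4. Their mean was 0.54 ± 0.22 (SD, n = 4), a fold of 1.45 with pairs from 1.19 to 1.73, and the limma adjusted p over all genes tested was 0.502. The TAUgl log2 ratios were 0.27, 0.72, 0.62 and 0.75, with a mean of 0.59 ± 0.22 (SD, n = 4), a fold of 1.51 with pairs from 1.21 to 1.68, and an adjusted p of 0.129. Neither passed the threshold of 0.05. Without TAUgl pair 1 the mean was 0.70 with an adjusted p of 0.0734, and without both pairs of that scan the adjusted p was 0.0872. In TAUgl the mean was larger by over 1.5 times on the processed log ratios of the scanner software, at 0.90 with an adjusted p of 0.150, and in the authors' deposited series matrix, at 0.91 with an adjusted p of 0.146.

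In SODmn the Dap3 log2 ratios were 0.09, 0.20, -0.23 and -0.13, with a mean of -0.02 ± 0.20 (SD, n = 4, adjusted p = 0.969). Without SODmn pair 3 the mean was 0.05. In SODgl they were -0.08, 0.03, 0.01 and 0.54, with a mean of 0.12 ± 0.28 (adjusted p = 0.651), so that pair 4 alone held most of it, and without SODgl pair 2 the mean was 0.16. The SOD1-G93A ratios thus lay on either side of 0 in both cell types. The SODmn ratio was lower than the TAUmn ratio by -0.56 ± 0.15 (log2 difference ± SE) with an adjusted p of 0.253, and the SODgl ratio lower than the TAUgl ratio by -0.47 ± 0.15 with an adjusted p of 0.528, so neither difference between the models passed the test. Between motor neurons and glia of a model, the differences were -0.14 in SOD1-G93A and -0.05 in TAU-P301L mice.

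The arrays of a pair did not always give the same Dap3 ratio. In TAUmn pair 3 they gave 0.85 and 0.21, in TAUmn pair 4 they gave 0.69 and -0.19, and in TAUgl pair 1 they gave 0.62 and -0.08. In these 3 pairs the lower value came from the array with the transgenic extract in Cy5, while in the other 5 pairs of the TAU-P301L comparisons both arrays were above 0 and that array gave the higher value. By scan, the mean Dap3 ratio in TAUmn was 0.69 in the scan with pairs 1 and 2 and 0.39 in the scan with pairs 3 and 4. In SODmn the mean was 0.15 in the scan with pairs 1 and 2 and -0.18 in the scan with pairs 3 and 4. The arrays of SODmn pair 3 gave 0.05 and -0.51, and those of SODmn pair 4 gave 0.13 and -0.39. The lower value again came from the array with the transgenic extract in Cy5. Pairs 3 and 4 of SODmn and of TAUmn were all read in the same scan. Both arrays of SODmn pairs 1 and 2 were above 0. The part of scan and dye in these signs was not tested.

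The Dap3 values came from the probe at chr3:89009564-89009623 (mm8), which was well above background in 7, 8, 8 and 8 of the 8 extracts of SODmn, SODgl, TAUmn and TAUgl. A dimmer Dap3 probe at chr3:89006872-89006931 (mm8), designed on a cDNA clone, was above background in 2, 2, 1 and 1 extracts and gave mean ratios of -0.07, -0.05, 0.00 and 0.01, so it measured little in any comparison. The genes next to Dap3 on chromosome 3 were read too, the 10 nearest on each side that are on the array, in the RefSeq order of GRCm38.p6. Some of them, such as Ubqln4 and Clk2, were not tested in any comparison. In TAUmn, Rit1 had a mean ratio of 0.41, Lamtor2 of 0.29 and Mtx1 of -0.31, each with 1 sign in all 4 pairs. Syt11 at 0.21 and 5830417I10Rik at -0.10 also had 1 sign there. In TAUgl, Fam189b had 0.26, Rit1 0.13, Pklr 0.06 and Msto1, the nearest on one side, 0.11, again with 1 sign. No neighbour passed the test in either comparison. Their ratios pointed both ways in TAUmn and also in TAUgl, where Mtx1 had -0.16.

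**Figure D1:**
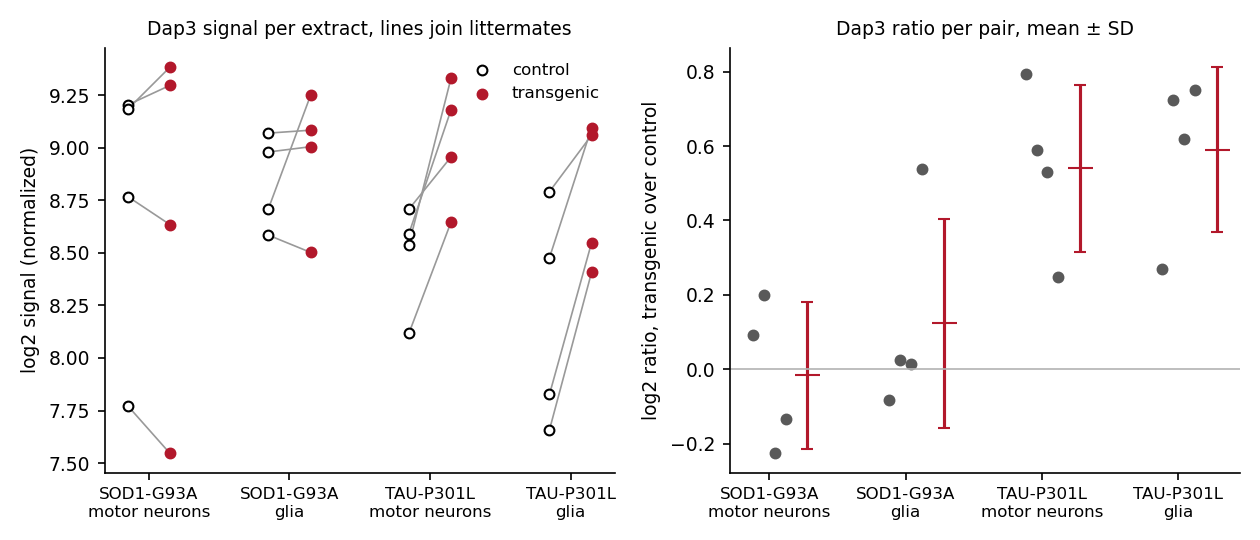
Dap3 signal in each extract (left, normalised log2 signal, open circles for controls and filled circles for transgenic mice, lines joining littermates) and the ratio in each littermate pair (right, log2 of transgenic over control, with mean ± SD, n = 4). All 8 TAU-P301L pairs lie above 0, and the SOD1-G93A pairs lie on both sides of it.

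No member passed the test in TAUgl: 0 of 60 had a limma adjusted p under 0.05, and 0% of the 8911 genes tested did. Yet the members lay mostly above 0. Their mean log2 ratios had a median of 0.11, against 0.00 over all genes tested, and 52 of 60 (86.7%) were above 0, against 51.2% of all genes. At an unadjusted p under 0.05 there were 15 members higher in the transgenic glia and 0 lower, against 457 and 767 of all genes tested. The lowest adjusted p of a member was that of Dap3.

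Members of both subunits lay above 0. Of the small subunit members 23 of 24 were above 0, with a median of 0.11, and Mrps2 was the exception. Of the large subunit members 29 of 36 were above 0, with a median of 0.12. The median over the members was 0.09, 0.10, 0.10 and 0.19 in pairs 1 to 4, so every pair was above 0 and pair 4 was the highest. Without pair 1 the median was 0.15, and 52 of 60 members were again above 0. The size of the shift depended on the processing, since the median was 0.17 with a smaller normexp offset, 0.26 with median centring in place of loess, 0.28 on the processed log ratios of the scanner software and 0.29 in the authors' deposited series matrix. The medians of all genes tested under these settings were 0.01, 0.08, 0.03 and 0.04.

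In 20 of the 60 members (33.3%) the ratio had 1 sign in all 4 TAUgl pairs, and in all 20 it was positive, against 17.3% of all genes tested with 1 sign. Mrpl14, which lies on the face of the large subunit that meets the small subunit, had log2 ratios of 0.37, 0.44, 0.33 and 0.38. Their mean was 0.38 ± 0.04 (SD, n = 4), and the adjusted p was 0.144. Its control signals were 8.84, 8.71, 8.58 and 8.25 and its transgenic signals 9.21, 9.14, 8.91 and 8.62, read from the probe at chr17:45161949-45162008 (mm8). The Mrpl14 extracts of the groups overlapped, while each transgenic extract was above its own littermate. In the other comparisons the Mrpl14 ratios had both signs, with 0.27, -0.14, -0.22 and 0.28 in SODmn, 0.03, -0.27, -0.20 and 0.13 in SODgl and -0.23, 0.09, 0.09 and -0.01 in TAUmn.

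Mrps34, a small subunit protein found in mitochondrial but not in bacterial ribosomes, had TAUgl ratios of 0.39, 0.39, 0.08 and 0.72 (mean 0.39 ± 0.26, adjusted p = 0.212). Mrps14, which has a bacterial counterpart near the decoding site, had 0.29, 0.40, 0.22 and 0.27 (mean 0.29 ± 0.08, adjusted p = 0.245). Mrps17, another small subunit protein with a bacterial counterpart, had 0.36, 0.20, 0.20 and 0.03 (mean 0.20 ± 0.14, adjusted p = 0.245). All 3 were thus positive in every pair, with Mrps14 the least spread. Without TAUgl pair 1 the means were 0.38 for Mrpl14, 0.40 for Mrps34, 0.30 for Mrps14 and 0.14 for Mrps17, with adjusted p from 0.119 to 0.410. The lowest member was Mrpl33, a small protein of the large subunit, at -0.16 with ratios of 0.17, -0.18, -0.21 and -0.43.

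**Figure D2:**
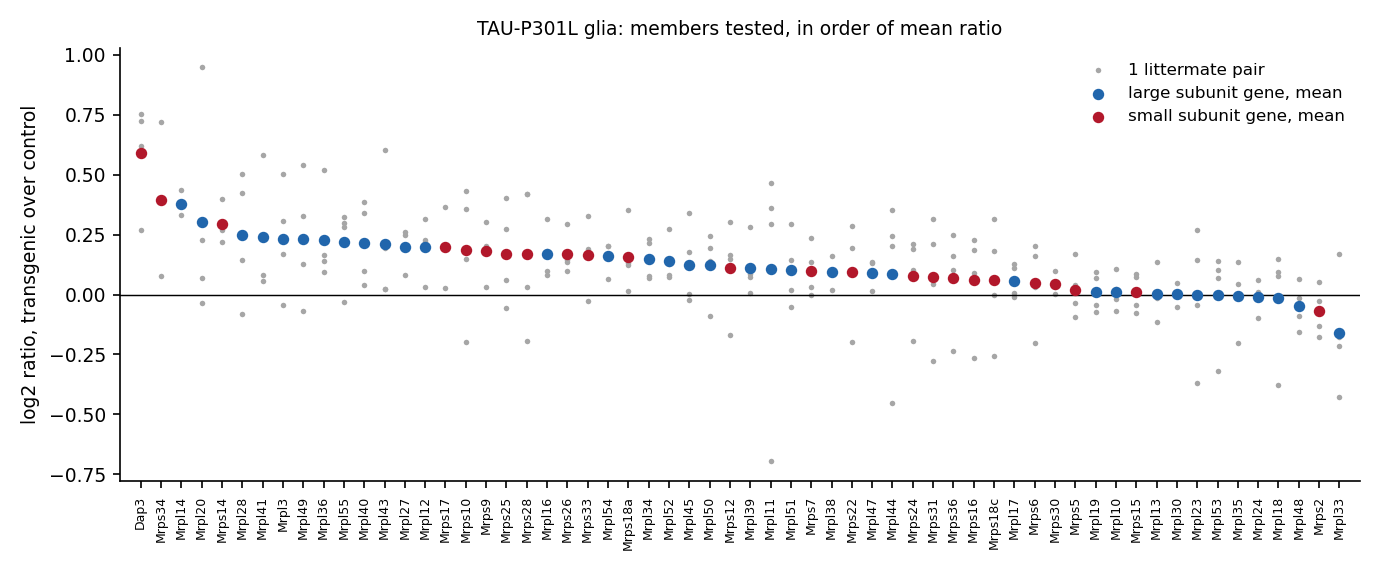
Log2 ratio of transgenic over control glia in TAU-P301L mice for the 60 members tested, in order of the mean, with the large dot for the mean of the pairs and the small dots for single littermate pairs. Most means lie above 0, from 0.59 for Dap3 down to -0.16 for Mrpl33, and no gene passed the test.

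Other gene lists lay on either side of 0 in TAUgl, and no gene of them passed the test. The nuclear genes of oxidative phosphorylation had a median ratio of 0.13 and 65 of 71 above 0, while the proteins of the cytosolic ribosome had a median of -0.04 and 29 of 74 above 0. Astrocyte markers had a median of -0.15 with 1 of 11 above 0, and oligodendrocyte markers a median of -0.15 with 2 of 10 above 0. Motor neuron markers had a median of 0.20 with 8 of 11 above 0, and microglia markers -0.06 with 3 of 9 above 0. Over the pairs, the mean signal of the astrocyte markers ranged from 8.45 to 9.19 in controls and from 8.33 to 8.88 in transgenic extracts, and that of the motor neuron markers from 8.12 to 8.74 and from 8.43 to 9.14. Chat, Slc18a3 and Prph, which define motor neurons, were too dim to test there, as was Gfap. The part of these marker shifts in the member ratios was not tested.

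In TAUmn most small subunit members were slightly above 0 and the large subunit members were on both sides of it. By limma 0 of 68 members passed the test, against 0% of the 11657 genes tested, and at an unadjusted p under 0.05 there were 2 higher and 1 lower, against 256 and 234 of all genes tested. The median ratio was 0.02, against -0.01 over all genes tested, and 40 of 68 were above 0. The pair medians were 0.01, 0.11, -0.06 and -0.01, so the members as a list had no common sign over the pairs. The small subunit members had 21 of 25 above 0 with a median of 0.03, and the large subunit members 19 of 43 with a median of -0.01. In 11 of 68 (16.2%) the ratio had 1 sign in all 4 pairs, against 12.6% of all genes tested.

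After Dap3, the TAUmn members with 1 sign and the smallest p were Mrpl21, Mrps6, Mrps33 and Mrps9 above 0 and Mrpl23, Mrps25, Mrpl52 and Mrpl49 below 0. Mrpl21, of the large subunit, had 0.18, 0.17, 0.02 and 0.18 (mean 0.14 ± 0.08). Mrps6, of the small subunit, had 0.03, 0.24, 0.14 and 0.63 (mean 0.26 ± 0.26). Mrpl23, which sits at the exit of the peptide tunnel in bacterial ribosomes, had -0.48, -0.15, -0.08 and -0.50 (mean -0.30 ± 0.22). Each of these had an adjusted p of 0.995. The means of the others were 0.13 for Mrps33, 0.05 for Mrps9, -0.15 for Mrps25, -0.23 for Mrpl52 and -0.11 for Mrpl49.

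In SODmn 0 of 70 members passed the test, against 0.00752% of the 13299 genes tested, and at an unadjusted p under 0.05 there were 2 higher and 3 lower, against 519 and 878 of all genes tested. The median ratio was -0.03, against 0.00 over all genes, and 24 of 70 members were above 0, against 6653 of the 13299 genes. Of the small subunit members 6 of 27 were above 0 with a median of -0.04, and of the large subunit members 18 of 43 with a median of -0.03. The pair medians were 0.04, -0.04, -0.06 and -0.07, so pair 1 lay on the other side of 0 from the rest. Without pair 3 the median was -0.02. In 13 of 70 members (18.6%) the ratio had 1 sign in all 4 pairs, against 13.3% of all genes tested. Motor neuron markers had a median of -0.18 in SODmn with 4 of 16 above 0, and their part in the member ratios was not tested.

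Mrps21, a small subunit protein with a bacterial counterpart, had SODmn ratios of -0.14, -0.29, -0.48 and -0.14, with a mean of -0.26 ± 0.16 (SD, n = 4) and an adjusted p of 0.227, the lowest of a member there. Mrps15 had -0.34, -0.04, -0.12 and -0.18 (mean -0.17 ± 0.13, adjusted p = 0.360). Mrps26, which has no bacterial counterpart, had -0.12, -0.50, -0.41 and -0.11 (mean -0.28 ± 0.20, adjusted p = 0.438). These 3 small subunit members were below 0 in every pair, as were Mrps17 at -0.15 and Mrpl46 at -0.07. On the other side, Mrpl33 had 0.54, 0.06, 0.10 and 0.30 (mean 0.25 ± 0.22), Mrpl38 a mean of 0.06. Mrpl47 had 0.42, 0.00, 0.19 and 0.17 (mean 0.20), which was 0.12 without pair 1 and 0.06 over the mean of its probes. With median centring in place of loess, Mrpl33 was at -0.05 and Mrpl38 at -0.05, so their sign rested on that choice. Without pair 3 the means were -0.19 for Mrps21, -0.19 for Mrps15, -0.24 for Mrps26 and 0.30 for Mrpl33.

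In SODgl 0 of 62 members passed the test, against 0.0957% of the 10450 genes tested, and at an unadjusted p under 0.05 there were 3 higher and 1 lower, against 828 and 866 of all genes tested. The median ratio was 0.03, against 0.02 over all genes, and 38 of 62 were above 0 (61.3%), against 57.5% of all genes. Large subunit members had a median of 0.06 and small subunit members of 0.00. The pair medians were 0.00, 0.03, 0.08 and -0.02. In 7 of 62 members (11.3%) the ratio had 1 sign in all 4 pairs, below the 19% of all genes tested, so the members as a list did not stand out in these glia.

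Mrpl40, a large subunit protein with no bacterial counterpart, had SODgl ratios of 0.26, 0.50, 0.07 and 0.23, with a mean of 0.26 ± 0.18 and an adjusted p of 0.116. Its other probes gave means of 0.00 and 0.04 there. Mrpl11, at the base of the stalk that receives translation factors, had 0.02, 0.68, 0.01 and 0.52 (mean 0.31 ± 0.35, adjusted p = 0.356), so pairs 2 and 4 held nearly all of it. Mrpl12, the protein of that stalk, was the member below 0 in every pair, with -0.11, -0.13, -0.12 and -0.32 (mean -0.17 ± 0.10, adjusted p = 0.385), and it was at 0.00 with median centring. Means were 0.09 for Mrpl38 and 0.11 for both Mrpl47 and Mrpl34. Without pair 2 they were 0.19 for Mrpl40, 0.18 for Mrpl11, -0.19 for Mrpl12, 0.07 for Mrpl38, 0.13 for Mrpl47 and 0.07 for Mrpl34.

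**Figure D3:**
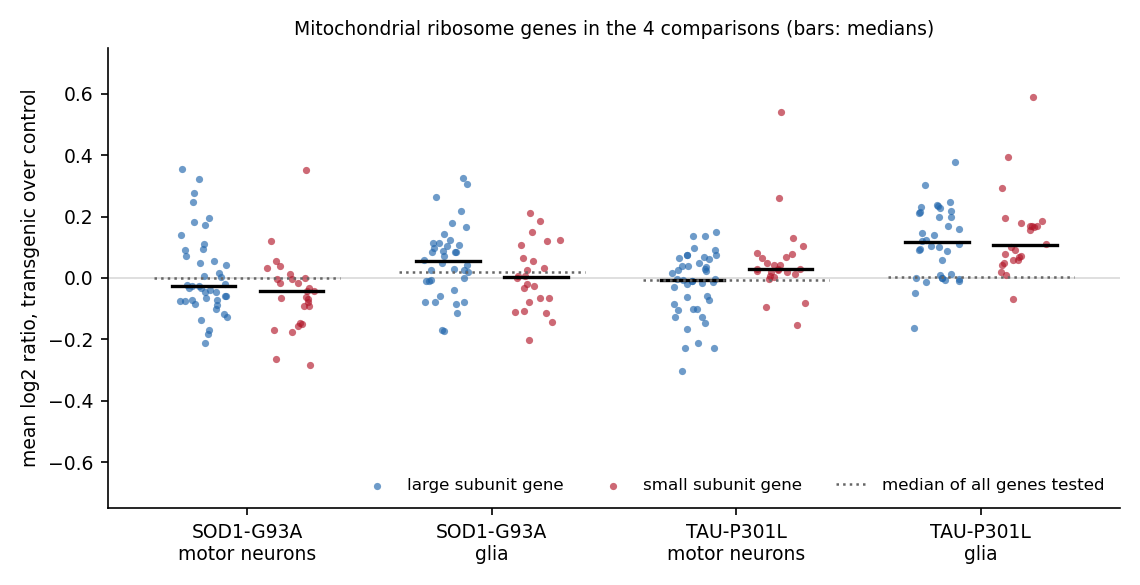
Mean log2 ratio of transgenic over control for each member tested (1 dot per gene, blue for the large and red for the small subunit) in the 4 comparisons, with solid bars at the subunit medians and dotted lines at the median of all genes tested. The TAU-P301L glia medians of 0.12 and 0.11 lie above the dotted line at 0.00, and the other medians lie within 0.06 of 0.

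Differences between the comparisons were tested in the same fit, and no member passed. This held for 0 of 62 members in SODmn minus SODgl, where 0% of 9777 genes passed, and for 0 of 60 in TAUmn minus TAUgl (0% of 8406 genes). It also held for 0 of 67 in SODmn minus TAUmn (0% of 11332 genes) and 0 of 60 in SODgl minus TAUgl (0% of 8428 genes). At an unadjusted p under 0.05 there were 3, 8, 11 and 10 members in these differences. Over all genes tested there were 942 above and 526 below 0 in SODmn minus SODgl, 193 and 288 in TAUmn minus TAUgl, 494 and 779 in SODmn minus TAUmn, and 376 and 209 in SODgl minus TAUgl. All 8 in TAUmn minus TAUgl and all 10 in SODgl minus TAUgl were on the side of the higher ratio in TAU-P301L glia, and in SODmn minus TAUmn 7 of 11 were on the side of TAUmn. The members with the smallest p were Mrpl33 in SODmn minus SODgl (0.42, adjusted p = 0.115), Mrpl40 in TAUmn minus TAUgl (-0.38, adjusted p = 0.819), Mrpl21 in SODmn minus TAUmn (-0.22, adjusted p = 0.249) and Mrpl14 in SODgl minus TAUgl (-0.46, adjusted p = 0.425). Of the 60 members tested in all 4 comparisons, Mrpl47, Mrps18c and Mrps28 had a mean ratio above 0 in every one and 0 were below 0 in every one. This is by the brightest probe, since another Mrpl47 probe had -0.07 in both SODmn and TAUmn and another Mrps18c probe -0.15 in SODmn.

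More members passed the test between the cell types of control mice than in any other comparison. Of 64 members tested in the 16 control extracts, 28 passed the test (43.8%), against 39.8% of the 9924 genes tested. Of these, 26 were higher in motor neurons, 40.6% of the members against 27% of all genes, and 2 were higher in glia, 3.12% of the members against 12.8% of all genes. The median log2 difference, motor neurons minus glia, was 0.32 over the members and 0.11 over all genes, and 50 of 64 members (78.1%) were above 0, against 60.6% of all genes. A gene could pass the filter through the cell type where it was bright alone, so these counts are a description and not support for a direction. Of the 26 members, 6 (Mrpl21, Mrpl22, Mrpl35, Mrpl4, Mrps15 and Mrps21) were above background in fewer than 4 of 8 control glia extracts. Among genes above background in at least 4 extracts of each cell type, 20 of 56 members were called towards motor neurons (35.7%, against 22% of 8460 genes) and 2 towards glia (3.57%, against 13.6%), with a median of 0.27 against 0.07. Motor neuron arrays and glia arrays were scanned apart and read with different versions of the scanner software, so cell type, scan and software cannot be told apart.

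By subunit, 15 of 40 large subunit members were called towards motor neurons and 2 towards glia, against 11 and 0 of 24 small subunit members. The median member signal of a control extract ran from 6.98 over a median of 7.63 to 7.81 in motor neurons, and from 6.91 over 7.25 to 7.43 in glia. The ranges overlapped because of the SODmn pair 3 control, the lowest motor neuron extract. Without that pair 37 members were called, beside 4752 of the 9924 genes tested. The litters were also fitted apart. In TAU litters alone 25 members were called, beside 2370 of all genes, with a member median of 0.47, and in SOD1 litters alone 7, beside 1021 of all genes, with a median of 0.17. On the scanner software's processed signals 34 members and 3579 of all genes were called, the members each towards motor neurons, with a median of 0.88 over the members and 0.42 over all genes tested.

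Mrps12, which forms part of the decoding centre, had the largest difference towards motor neurons. Its log2 signal ran from 7.71 over a median of 7.94 to 8.47 in the 8 control motor neuron extracts and from 6.21 over 7.19 to 7.43 in the 8 control glia extracts. The groups did not overlap, and the difference was 0.95 ± 0.16 (SE) with a limma adjusted p of 4.7e-04. The Mrps12 probe lies at chr7:28448578-28448637 (mm8). Mrps26 ran from 7.54 to 8.09 in motor neurons and from 6.15 to 7.50 in glia, a difference of 0.89 ± 0.18 without overlap. In 7 of 64 members (10.9%) the 8 extracts of either cell type did not overlap, against 6.21% of all genes tested, and these were Mrpl17, Mrpl4, Mrps12, Mrpl48, Mrpl35, Mrps26 and Mrps21, all higher in motor neurons. Among genes above background in at least 4 extracts of each cell type, 4 members (7.14%) did not overlap, against 3.09% of all genes, namely Mrpl17, Mrpl48, Mrps12 and Mrps26.

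Mrpl27, which reaches towards the site of peptide bond formation in bacterial ribosomes, differed by 0.89 ± 0.15, with 7.37 to 8.27 in motor neurons and 6.63 to 7.51 in glia. Mrpl12, which binds translation factors, differed by 0.85 ± 0.21, and Mrpl39, which has no bacterial counterpart, by 0.78 ± 0.20. The extracts of these 3 overlapped between the cell types. In SOD1 litters alone Mrps26, Mrpl27, Mrpl12 and Mrpl39 did not pass the test, while Mrps12 passed it there. The other members called were Mrps22, Mrpl51, Mrpl21, Mrpl54, Mrpl48, Mrpl35, Mrpl50, Mrpl22, Mrpl17, Mrps7, Mrps17, Mrps15, Mrps30, Mrps21, Mrps18a, Mrpl24, Mrps31, Mrpl4, Mrpl41, Mrps9 and Mrpl38, with differences from 0.72 for Mrps22 down to 0.26 for Mrpl38. Over 28 alternative settings the Mrpl50 call was lost in 16, that of Mrpl38 in 14 and that of Mrpl41 in 11. Mrps30 and Mrps18a are named for the small subunit but are now placed in the large subunit, so the split used here is by name.

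Mrpl33 went the other way. Its log2 signal ran from 7.81 over a median of 8.97 to 9.27 in control motor neurons and from 9.25 over 9.93 to 10.35 in control glia, read at chr5:31899133-31899192 (mm8). The groups met only at their ends, and the difference was -1.02 ± 0.20 (SE) with an adjusted p of 0.00142. On the processed signals it was -0.55 with an adjusted p of 0.301. Mrpl23 differed by -0.49 ± 0.18 with an adjusted p of 0.0455, a call that was lost on leaving out any of 8 single littermate pairs or the pairs of the shared scan, and in either colony alone. Dap3 was called in neither direction, with a difference of 0.10 and an adjusted p of 0.728. Its control mean was 8.73 ± 0.67 in SODmn, 8.84 ± 0.23 in SODgl, 8.49 ± 0.26 in TAUmn and 8.19 ± 0.54 in TAUgl (SD, n = 4 each). The range of the control extracts in each group overlapped that of every other group.

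**Figure D4:**
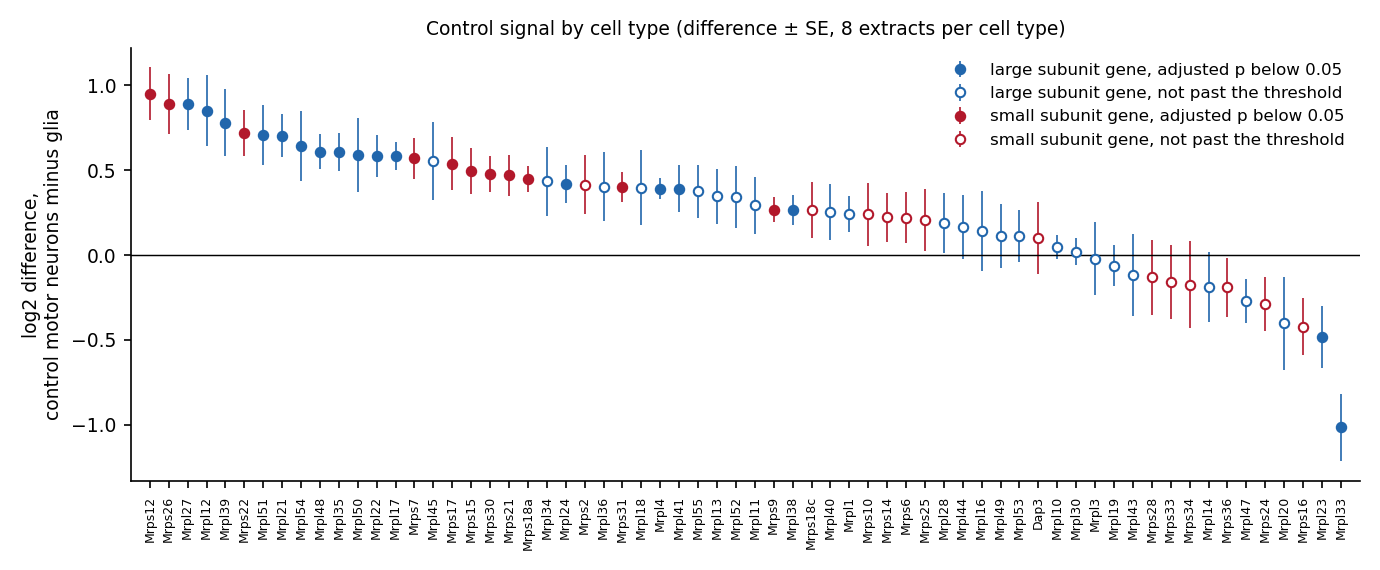
Difference in log2 signal between control motor neurons and control glia (± SE, 8 extracts per cell type) for the 64 members tested, in order, with blue for the large and red for the small subunit, filled dots for an adjusted p under 0.05 and open dots for the rest. Members from Mrps12 at 0.95 down to Mrpl38 at 0.26 include 26 that passed above 0, and Mrpl23 and Mrpl33 passed below 0.

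The other lists around mitochondrial translation held no gene that passed the test in a transgenic comparison. Of the translation factors, of which 14 were listed, 4 were tested in TAUgl and all 4 were above 0, with Gfm2, a ribosome recycling factor, at 0.17 (adjusted p = 0.284). Of the assembly and RNA modification factors, 10 of 26 were tested there, with 6 above 0 and Dhx30, an RNA helicase of mitoribosome assembly, at 0.26 (adjusted p = 0.144). Of the mitoribosome proteins without an Mrp name, 0 of 4 tested were above 0 in SODgl (median -0.31) and 3 of 4 in TAUgl (median 0.22). One of them, the large subunit protein Gadd45gip1, had -0.48 in both glia comparisons, with adjusted p of 0.212 in TAUgl and 0.105 in SODgl. In SODgl, Eral1, which assembles the small subunit, had -0.23, -0.79, -0.38 and -1.18 (mean -0.64 ± 0.43, adjusted p = 0.0853), and Lars2, the mitochondrial leucyl-tRNA synthetase, had 0.65, 2.84, 0.47 and 2.81 (mean 1.69 ± 1.31, adjusted p = 0.101). Both thus had 1 sign in all 4 pairs with a wide spread. In SODmn the smallest p of these lists was that of Nsun4, an rRNA methyltransferase, at -0.12 over the 3 pairs with a value (adjusted p = 0.356), and in TAUmn that of Mtg1, a GTPase of assembly, at -0.17 (adjusted p = 0.995).

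Between control motor neurons and glia these lists did hold calls. Over all 9924 genes tested, 27% were called towards motor neurons and 12.8% towards glia, so the counts are a description. Of the translation factors, 4 of 7 tested were higher in motor neurons, namely Mtrf1l at 0.44, Gfm2 at 0.38, Mtrf1 at 0.29 and Mtfmt at 0.22. Of the assembly factors 3 of 12 were higher in motor neurons (Ngrn at 0.80, Malsu1 at 0.77 and Fastkd2 at 0.24) and 2 in glia (Eral1 at -1.35 and Ybey at -1.02). Among the mitoribosome proteins without an Mrp name, Ptcd3 of the small subunit was higher in motor neurons by 0.92 and Gadd45gip1 higher in glia, at -1.02. Yars2, a tRNA synthetase, at 0.33 and Ssbp1, which binds mitochondrial DNA, at 0.32 were higher in motor neurons. The cytosolic ribosome had a median of -0.19 over 79 genes in the same fit, and nuclear oxidative phosphorylation a median of 0.06 over 76 genes of which 19 were called towards motor neurons and 7 towards glia. The members' median of 0.32 lay above both.

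Several members had other probes that passed the filter, and the probes of a gene did not always give 1 sign. All probes of a gene had the same sign in 11 of 18 such members in SODmn, 4 of 7 in SODgl, 13 of 18 in TAUmn and 5 of 6 in TAUgl. For the difference between control cell types, another Mrpl43 probe gave 0.84, another Mrps36 probe 0.67 and another Mrpl52 probe -0.36, each of the opposite sign to the brightest probe of its gene. The genes Mrpl42, Mrpl57 and Mrpl58 carry older names on the array and so fell outside the naming rule. Of these, Mrpl57 had 0.27 ± 0.16 in TAUgl (adjusted p = 0.222), Mrpl58 0.11, and Mrpl42 -0.05, and Mrpl42 was higher in control glia than in motor neurons at -0.40 (adjusted p = 0.0244).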

How the data were processed

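RNA of laser-captured cells was linearly amplified and hybridised on 32 Agilent 2-colour arrays. Per the file headers, the deposited files give the mean spot and median background intensity and the processed intensity of each channel, and the log10 ratio of Cy5 over Cy3 that the authors' scanner software made. Agilent Feature Extraction was version 8.5.1.1 in the submitters' processing notes and in the motor neuron headers, and 9.5.1.1 in the glia headers.

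Intensities were background-corrected with normexp (offset 50) and loess-normalised in limma 3.58.1 (R 4.3.3). Ratios were turned to transgenic over control by the labelled dye, and the 2 arrays of a pair were averaged. One fit with eBayes took all 16 pairs, with p-values adjusted by Benjamini-Hochberg over all genes tested and a threshold of 0.05. Control levels were fitted on single-channel values (loess, then Aquantile) with colony as a covariate, for genes well above background in at least 8 of 16 control extracts. The fit was tested on simulated independent values, with planted changes larger than the mean transgenic over control ratio of any member. Smaller changes and values correlated within a scan were not simulated. Probes were named by accession (23374), symbol (6733) or synonym (2919) in the RefSeq table, and 8148 kept the name in the file. Genes without a call were named where the ratio had 1 sign in all 4 pairs and the p was among the 5 smallest in a direction. Other lists are named by their calls or, without any, by the smallest p. Members of highest and lowest control signal are not named, since levels of different probes cannot be compared. Members and lists were chosen with earlier results of these data known. The p-values of the ratios rest on a spread shared over all 16 pairs and moderated by eBayes. They do not measure the spread of the 4 pairs of a comparison alone. Those of the control levels rest on the spread over the 16 control extracts. The number of pairs, 4 per comparison, limits the precision.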

Additional observations from a re-analysis of the deposited data

Results flagged for a closer look

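Of 92 groups of values examined, 12 had an extreme value far from its nearest neighbour, where chance gives about 1 in 20. Of the 12, 4 were among ratios over the pairs of a comparison. Mrpl12 in SODgl had -0.32 in pair 4, with the nearest at -0.13. Mrpl21 in TAUmn had 0.017 in pair 3, with the nearest at 0.17. Mrpl52 in TAUmn had -0.51 in pair 4, with the nearest at -0.15. The TAUgl member median was 0.19 in pair 4, with the nearest at 0.10.

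Of the control levels, Mrps12 was lowest in a TAUgl extract, at 6.21 with the nearest at 6.92. The other 7 were all in the SODmn pair 3 control among the motor neuron extracts. In it Mrps22 was at 6.98 (nearest 7.34), Mrpl33 at 7.81 (nearest 8.88), Mrps31 at 6.62 (nearest 7.04) and Mrpl51 at 7.79 (nearest 8.98). Mrps17 was at 6.67 (nearest 7.11) and Mrpl38 at 6.40 (nearest 6.71). Mrps21 alone was high there, at 7.56 with the nearest at 6.63. No member's ratio differed between comparisons past the threshold (0 members by limma).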

How the results depend on the processing

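In every alternative run, 0 members were called in the 4 comparisons and in their 4 differences. The TAUgl member median stayed above 0, at 0.17 with a normexp offset of 16, 0.28 on processed log ratios, 0.29 in the series matrix, 0.26 with median centring and 0.17 for genes detected in all 8 extracts. With median centring the SODmn median was -0.16 and the SODgl median 0.14, SODmn Mrpl33 -0.050 and Mrpl38 -0.047, and SODgl Mrpl12 0.0018. SODmn Dap3 was 0.085 on processed log ratios and 0.12 in the series matrix, and ran from -0.089 to 0.053 on leaving out single pairs. SODgl Dap3 ran from -0.014 to 0.193 on leaving out single pairs.

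Between control cell types, 28 members were called, 24 to 37 without single pairs, 1 where detection in all 16 control extracts was asked (6 members tested), and 7 in the SOD1 litters alone, where Dap3 was at -0.10. The member median of 0.32 was 0.88 on processed signals. Over all genes, SODmn calls ran from 0 to 5 (1 reported), SODgl from 0 to 13 (10), TAUmn from 0 to 14 (0), and control calls from 197 to 7299 (3947). Replicate numbers were not taken to pair the samples, since same-number correlations ran from -0.13 to 0.30 and were over 0.1 in 5 of 8. A sample correlated best with its own number in 1 of 4 cases in SOD1 and 3 of 4 in TAU litters, a hint from the data and not from the design. With the replicate block, 0 members were called in SODmn minus SODgl and in TAUmn minus TAUgl, and 28 between control cell types. Cell type cannot be told apart from scan and software version. The eBayes fit on tested genes alone, the fit without the shared scan's pairs and the filter on each cell type were chosen after seeing the data.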
